A study of Mus musculus with 56 samples.

Results

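The activating limb of the circadian clock and the receptors that drive it comprised 5 genes: Arntl (Bmal1), Clock, Npas2, Rora and Rorb. They were chosen by name, with earlier results of these data known. All 5 were among the 17564 genes of the deposited table, and all passed the filter on low values. They were measured by sequencing of polyadenylated RNA in the anterior hypothalamus of 56 female C57BL/6J mice aged 9 weeks. The mice were held in a light-dark cycle, with zeitgeber time (ZT) 0 at lights on and ZT12 at lights off, and had been fed for 7 days either in the light phase (day-restricted feeding, DRF) or in the dark phase (night-restricted feeding, NRF). Tissue was collected every 4 h from ZT0 to ZT24, which gave 7 time points with 4 mice per regimen at each, and the mice of ZT24 were not those of ZT0. No ad libitum group was part of the design, so each regimen was compared with the other, and no males were studied.

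BMAL1, encoded by Arntl, pairs with CLOCK or with its paralogue NPAS2. The dimer binds E-boxes and activates the Period and Cryptochrome genes, the REV-ERB genes Nr1d1 and Nr1d2, and the D-box factor Dbp. The REV-ERB and ROR nuclear receptors then compete for ROR response elements (ROREs) in target genes that include Arntl. RORs activate and REV-ERBs repress, and Arntl transcription is therefore usually lowest when Nr1d1 transcription has been high. In the suprachiasmatic nucleus, the light-entrained pacemaker that lies within the anterior hypothalamus, this loop runs in phase with the light-dark cycle. Npas2 is best known from the forebrain outside the hypothalamus, and Rora and Rorb are also expressed in thalamus and sensory cortex.

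The RORE core was searched in the promoter windows of RefSeq (GRCm38.p6), each running from 250 bases before to 50 bases after an annotated start site. All 5 genes matched a window, 9 windows in all. The cores found in the Arntl windows are shown, as they are the elements through which the receptors of the set are known to act on an activator of the set. The 7-base core is in capitals, and both stretches lie on the plus strand around the second annotated start site of Arntl.
Arntl RORE core TAGGTTA, chr7:113207494-113207523: tggtcggaaagTAGGTTAgtggtgcgacat
Arntl RORE core TAGGTCA, chr7:113207530-113207559: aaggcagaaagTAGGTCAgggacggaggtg
The first core lies 6 bases before that start site and ends on it, and the other starts 30 bases after it. The first also falls in the other Arntl window. On either strand, TAGGTTA was present in 1.44% and TAGGTCA in 2.61% of 32851 windows of this length. Neither core, nor the E-box CACGTG (7.15% of windows) nor the D-box TTATGNAA (3.38%), was found in the windows of Clock, Npas2, Rora or Rorb. Arntl lies at chr7:113178471-113314126, Clock at chr5:76209868-76305603, Npas2 at chr1:39193702-39363240, Rora at chr9:68653404-69388246 and Rorb at chr19:18930609-19111196 in the same annotation.

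The deposited values could be turned back into whole reads, so levels are given as CPM, the reads of a gene per 1000000 reads of the normalised library. Library sizes after the authors' normalisation were 29591266 to 34493344 reads. The 5 genes held 326 to 4479 reads per mouse, and the counting error of a single value was at most 5.54%. Of the markers of the anterior hypothalamus, Avp had a median of 170 CPM and Oxt of 271 CPM. The 6 paraventricular and supraoptic markers, which include both, summed to a median of 674 CPM. The 4 arcuate and lateral hypothalamus markers summed to 685 CPM, with Pmch at 461 and Hcrt at 194 CPM. The tissue thus also carried transcripts of other parts of the hypothalamus. The 4 pituitary markers summed to a median of 0.164 CPM. Markers of neighbouring regions varied between mice, with 5 thalamus markers summing to 189 to 480 CPM and 4 striatum markers to 93.1 to 523 CPM over the 56 mice. In bulk tissue, fewer cells of a type and less RNA per cell cannot be told apart.

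A pair of libraries stood apart from the rest. In replicates 3 and 4 of DRF at ZT16, GC-rich transcripts were higher and GC-poor ones lower, by a slope of 0.311 and 0.449 log2 units per 10 points of GC content, while the other 54 libraries lay between -0.127 and 0.140. The comparison at ZT16 called 3231 of 16083 transcripts different between regimens, and 31 without these libraries. Leaving them out also left fewer DRF mice at ZT16 and so less power, and the 2 effects cannot be told apart. With library trends in GC content, length and level removed and all mice kept, 1786 transcripts were called at ZT16. Results that rest on ZT16 are therefore given with and without these libraries.

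The order of the levels was taken per kilobase of exon, since the genes differ in length. Clock was highest, with a median over the 56 mice of 7.12 CPM per kb. Rora followed with 5.08, Arntl with 4.44, Rorb with 3.94 and Npas2 with 3.11 CPM per kb. The ranges of all neighbours in this order overlapped. Clock exceeded Rora in 47 of 56 mice, Rora exceeded Arntl in 41, Arntl exceeded Rorb in 47 and Rorb exceeded Npas2 in 47. The full span over mice was narrow for Arntl, at 26.7 to 43.4 CPM, and wide for Rora, at 34.6 to 149 CPM.

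**Figure D1:**
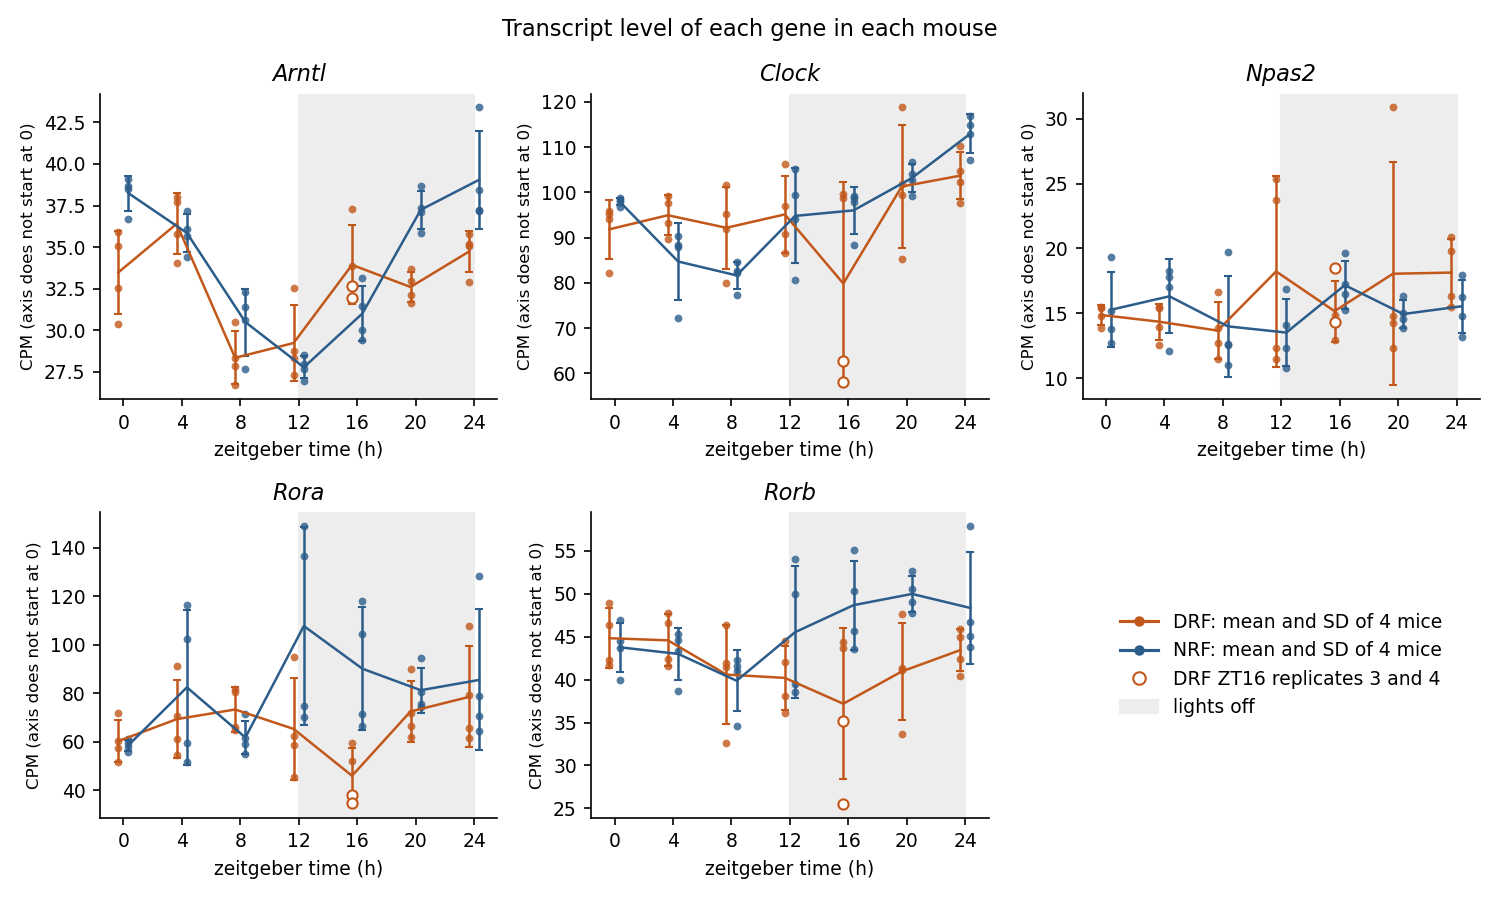
Transcript level (CPM) of the 5 genes against zeitgeber time, with every mouse as a point and lines through the mean with SD of 4 mice, DRF in orange and NRF in blue. Arntl falls from ZT0 to ZT12 in NRF and rises again, with a flatter course in DRF, and open circles mark the 2 DRF libraries at ZT16 that stood apart.

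Whether each gene cycled was tested in each regimen by combining JTK_CYCLE and the Lomb-Scargle periodogram, with periods of 20 to 28 h and adjusted p under 0.05. In NRF, 3 of the 5 genes were rhythmic: Arntl (adjusted p = 5.61e-07), Clock (adjusted p = 3.58e-05) and Rorb (adjusted p = 0.0147). In DRF none of the 5 was called by this combined test, and all had an adjusted p of 1, with 0 of 5 at an unadjusted p under 0.05. A limma fit of a 24-h cosine in DRF also called none, with 2 of 5 at an unadjusted p under 0.05 (13.5% of all transcripts), namely Arntl (limma adjusted p = 0.119) and Rorb (limma adjusted p = 0.353). Over the whole table, 27.8% of 16245 transcripts were called in NRF and 0.813% in DRF. A gene called in 1 regimen and not in the other is not thereby shown to differ, and the difference itself was tested separately.

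Arntl, the obligate partner of both CLOCK and NPAS2, had the clearest cycle of the set. In NRF at ZT0 the 4 mice had 39.1, 36.7, 38.5 and 38.7 CPM. At ZT4 they had 35.7, 34.4, 37.2 and 36.1 CPM. Levels then fell through the rest of the light phase. At ZT8 the values were 30.6, 27.7, 31.4 and 32.3 CPM. The trough came at ZT12, with 27.7, 27.9, 26.9 and 28.5 CPM, below every mouse of ZT0 and ZT4. In the dark phase the transcript recovered, to 31.5, 29.4, 30.02 and 33.1 CPM at ZT16 and 37.4, 38.7, 35.9 and 37.1 CPM at ZT20. At ZT24 the mice had 37.3, 38.4, 37.1 and 43.4 CPM. The highest group mean was thus 39.0 ± 2.96 CPM (SD, n = 4) at ZT24 and the lowest 27.8 ± 0.661 CPM at ZT12, a ratio of 1.41.

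In DRF the same gene covered a smaller range. At ZT0 the mice had 35.9, 30.4, 35.1 and 32.5 CPM, all below the 4 NRF mice of that time. At ZT4 they had 37.7, 34.1, 38.0 and 35.8 CPM, which overlapped the NRF mice. The fall to ZT8 was shared, with 26.7, 28.3, 30.5 and 27.9 CPM, and at ZT12 the values were 28.3, 27.3, 28.8 and 32.5 CPM. At ZT16 the mice had 33.9, 37.3, 31.9 and 32.6 CPM. The first 2 lay above all NRF mice, and the last 2, the libraries that stood apart, lay inside the NRF range. Arntl was higher in DRF there by 0.13 on the log2 scale (SE 0.05, adjusted p = 0.0968 by limma). Without the 2 libraries it was higher by 0.19 (SE 0.07, adjusted p = 0.223 by limma), and neither difference was called. At ZT20 they had 31.6, 33.7, 32.1 and 33.0 CPM, all below the NRF mice, and at ZT24 32.9, 35.2, 35.8 and 35.04 CPM, again all below. The highest group mean in DRF was 36.4 ± 1.85 CPM at ZT4 and the lowest 28.3 ± 1.60 CPM at ZT8, a ratio of 1.28.

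A cosine fit put these courses into figures. The amplitude of Arntl on the log2(CPM + 1) scale was 0.23 in NRF, with a 95% interval of 0.20 to 0.26, and 0.11 in DRF, with an interval of 0.05 to 0.18. The difference DRF minus NRF was -0.12, with an interval of -0.18 to -0.05, and was -0.11 (-0.18 to -0.04) without the 2 DRF libraries at ZT16. The fitted peak stood at ZT23.6 in NRF (95% interval 23.0 to 24.3). In DRF, where the rhythm was not called, the same fit gave a peak at ZT23.1, with the difference between regimens at -0.57 h and an interval of -2.87 to 1.73 h.

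A test of the cosine terms between regimens across all transcripts with limma called 2 of the 5 genes, Arntl (adjusted p = 0.0449) and Rorb (adjusted p = 0.0356). Rora (0.0853), Clock (0.108) and Npas2 (0.926) did not pass. The share of all transcripts called was 11.1%. Both calls were lost without the 2 DRF libraries at ZT16, at adjusted p = 0.0655 for Arntl and 0.141 for Rorb, and Arntl also without any 1 replicate number (adjusted p from 0.0798 to 0.231). Rorb lost its call without replicate 2 (limma adjusted p = 0.0648), 3 (0.311) or 4 (0.107) and kept it without replicate 1 (0.0377). On the deposited scale Arntl lost its call (limma adjusted p = 0.0632) and Rorb kept it (0.0394). A test that let each of the 7 time points differ freely gave adjusted p = 0.00479 for Arntl, 0.166 for Rorb and 0.123 for Clock, with 13.1% of transcripts called.

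**Figure D2:**
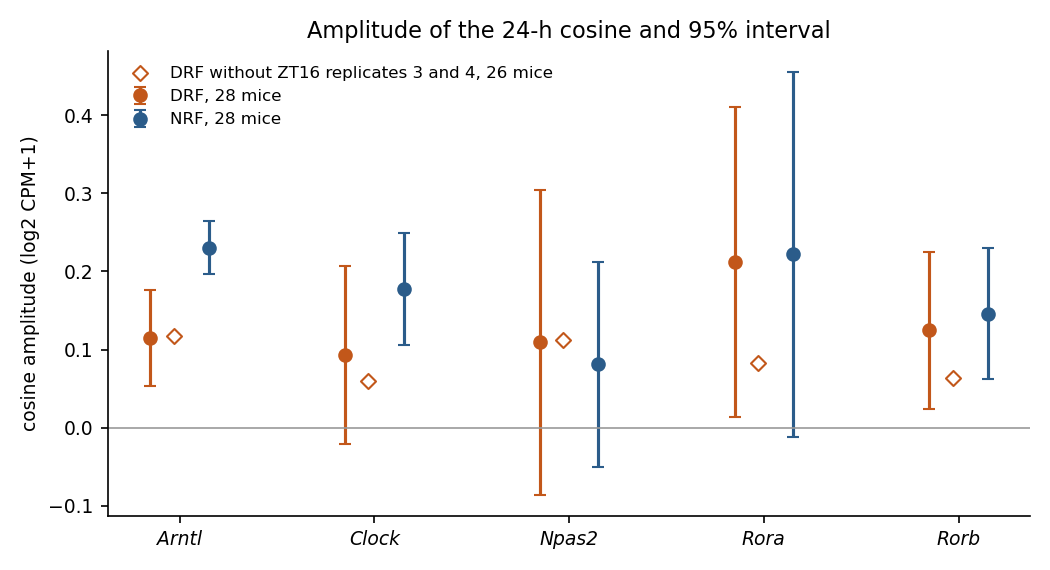
Amplitude of the 24-h cosine on the log2(CPM + 1) scale for the 5 genes, with 95% intervals, in DRF (orange, 28 mice) and NRF (blue, 28 mice). The Arntl intervals do not overlap, and open diamonds give the DRF estimate without the 2 ZT16 libraries, which is lower for Clock, Rora and Rorb.

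The regimens were also compared at each time point with limma, which gave 35 tests on the set. At an adjusted p under 0.05, 4 of the 35 were called, each with the lower level in DRF: Arntl at ZT0, and Clock, Rora and Rorb at ZT16. With library trends in GC content, length and level removed, limma also called 4, but Clock (adjusted p = 0.433) and Rorb (0.223) at ZT16 gave way to Arntl at ZT20 (0.0219) and to Arntl at ZT16 (0.0427), which was higher in DRF by 0.15. Over all transcripts 2.15% were lower in DRF at ZT0 and 13.4% at ZT16. Arntl at ZT0 was lower by 0.19 on the log2 scale (SE 0.05, adjusted p = 0.0352), with group means of 33.5 CPM in DRF and 38.2 CPM in NRF. Leaving out any 1 replicate number kept this difference between -0.21 and -0.16 but lost the call, with adjusted p from 0.108 to 0.171. On the deposited scale Arntl at ZT0 was lower in DRF but was not called (limma adjusted p = 0.092). At ZT20 Arntl was lower by 0.19 (SE 0.05, adjusted p = 0.0781) and at ZT24 by 0.16 (SE 0.05, adjusted p = 0.289), and in neither did the groups overlap. Without the 2 DRF libraries at ZT16, the values of ZT0 and ZT20 were both called, at adjusted p = 0.0221 and 0.0496. With the mean levels of 5 thalamus and 4 striatum markers as covariates, a fit chosen after the data were seen, Arntl at ZT0 was lower by 0.19 (adjusted p = 0.036), and its rhythm difference had an adjusted p of 0.0234. Without the 2 DRF libraries the same limma fit gave adjusted p = 0.0235 and 0.0287. From mouse to mouse within groups, Arntl went opposite to the striatum list in NRF, with r = -0.638 (permutation p = 0.00392, adjusted p = 0.0392) and rho = -0.629 (permutation p = 0.00148, adjusted p = 0.0414), and r = -0.482 without the 2 mice farthest in the list. In DRF the values were r = 0.235 (permutation p = 0.368) and rho = 0.205 (permutation p = 0.358). Arntl also went opposite to the microglia list in DRF, with r = -0.551 (permutation p = 0.00479, adjusted p = 0.0395) and rho = -0.591 (permutation p = 0.0042, adjusted p = 0.0498), and r = -0.486 without the 2 farthest mice. In NRF these were r = -0.492 (permutation p = 0.0239, adjusted p = 0.135) and rho = -0.432 (permutation p = 0.0289). The part of other tissue or cells in the level of Arntl was not tested.

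In 6 of the 35 comparisons the 4 DRF mice did not overlap the 4 NRF mice, and in all 6 the DRF mice were lower. These were Arntl at ZT0, ZT20 and ZT24, Clock at ZT0, Rora at ZT16 and Rorb at ZT20. Among all transcripts, the 4 DRF mice were all below the NRF mice in 7.15% at ZT0, 3.13% at ZT16, 4.30% at ZT20 and 4.45% at ZT24. Shares for the other direction and for ZT4, ZT8 and ZT12 are not given. The 6 of 35 and their shared direction therefore cannot be set against all transcripts. The mean over the 7 time points was lower in DRF by 0.06 for Arntl (SE 0.02, adjusted p = 0.0503), by 0.13 for Rorb (SE 0.04, adjusted p = 0.0521) and by 0.26 for Rora (SE 0.09, adjusted p = 0.0526), so that none of the 5 was called by limma and 3 had an unadjusted p under 0.05. The share of transcripts called for a mean difference at an adjusted p under 0.05 was 10.4%, and the share at the unadjusted threshold was not counted. ZT24 was set against ZT0 within each regimen to see whether the course closed after a day. None of the 5 genes was called in DRF (0 of 5 at an unadjusted p under 0.05, with 0.46% of transcripts called) or in NRF (1 of 5, Rora, with 2.22% called).

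**Figure D3:**
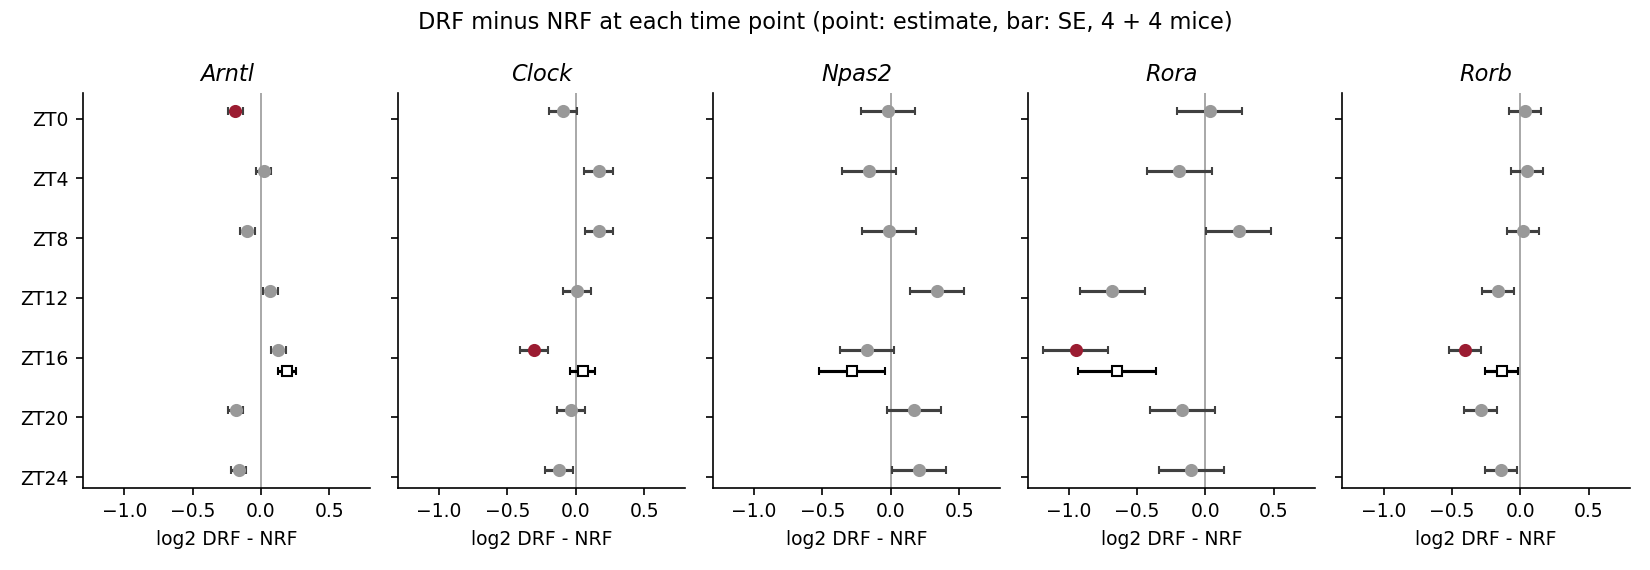
Difference DRF minus NRF (log2 CPM + 1) at each time point for the 5 genes, as the estimate with its SE. Red points passed an adjusted p of 0.05, and open squares give ZT16 without the 2 DRF libraries that stood apart, where the differences of Clock, Rora and Rorb move towards 0.

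Clock, the partner of BMAL1 with histone acetyltransferase activity, was lowest at ZT8 and highest at ZT24 in NRF. The 4 mice had 82.5, 82.1, 84.6 and 77.3 CPM at ZT8 and 107, 115, 117 and 113 CPM at ZT24, with no overlap, and the mice of ZT0 lay between them at 96.9 to 98.8 CPM. ZT24 minus ZT0 was 0.20 on the log2 scale (SE 0.11, adjusted p = 0.28 by limma). The NRF amplitude was 0.18 (95% interval 0.11 to 0.25) with a peak at ZT20.2 (18.7 to 21.7). In DRF the means of the other time points lay between 91.8 and 104 CPM, and ZT16 had 79.8 ± 22.5 CPM.

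That ZT16 mean was a mixture. Replicates 1 and 2 had 98.9 and 99.7 CPM, within or just above the NRF mice of that time, which had 88.3, 99.1, 98.0 and 98.7 CPM. Replicates 3 and 4, the libraries that stood apart, had 62.6 and 58.2 CPM. With all mice Clock was lower in DRF at ZT16 by 0.31 (SE 0.11, adjusted p = 0.0346), and without the 2 libraries the difference was 0.05 (SE 0.09, adjusted p = 0.891). The fitted DRF amplitude was 0.09 with all mice and 0.06 without them. The amplitude difference DRF minus NRF was -0.08 (-0.22 to 0.05) with all mice and -0.12 (-0.22 to -0.02) without. These intervals are not adjusted over transcripts. The limma test of the cosine terms between regimens did not call Clock without the 2 libraries (adjusted p = 0.198).

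Npas2, the paralogue of Clock, had no called rhythm, and none of its 7 time points was called between regimens by limma (0 of 7 at an unadjusted p under 0.05). Its levels were the lowest of the set, with 11.5 to 30.9 CPM in DRF and 10.8 to 19.7 CPM in NRF. The group means in NRF ran from 13.5 ± 2.60 CPM at ZT12 to 17.2 ± 1.86 CPM at ZT16. In DRF 3 mice were far above the others of their group. Replicates 3 and 4 of ZT12 had 23.8 and 25.4 CPM, against 11.5 and 12.3 CPM in replicates 1 and 2. Replicate 2 of ZT20 had 30.9 CPM, against 12.3 to 14.8 CPM in the other 3. The next highest were replicates 2 and 4 of ZT24, with 20.9 and 19.8 CPM, against 16.3 and 15.5 CPM in replicates 1 and 3. The within-group SD was 0.34 in DRF and 0.23 in NRF on the log2 scale. The interval of the amplitude difference between regimens was -0.20 to 0.26, so a difference of the size seen for Arntl lay inside it.

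The 3 mice of ZT12 and ZT20 also had more striatal transcript, with a mean log2(CPM + 1) of the striatum markers of 6.15, 6.64 and 5.52, against 3.804 to 4.589 in the other mice of the same groups. In DRF at ZT24 this mean was 3.998 and 5.16 in replicates 2 and 4, and 3.768 and 4.392 in replicates 1 and 3. Deviations of Npas2 from the group mean followed those of the striatum list (Drd1, Adora2a, Ppp1r1b and Rgs9) in DRF, with Pearson's r = 0.841 (permutation p = 7e-05) and Spearman's rho = 0.812 (permutation p = 7e-05) over 28 mice. In NRF the values were r = 0.602 (permutation p = 0.00823) and rho = 0.418 (permutation p = 0.0523). Adjusted over the 140 relations between lists and genes, p was 0.0049 for both in DRF, and 0.064 and 0.227 in NRF, which did not pass, and r without the 2 mice farthest in the list was 0.795 and 0.44 (DRF and NRF). The list summed to 116 to 523 CPM in DRF at ZT12 and to 93.8 to 118 CPM in NRF at that time. Adora2a ranged from 0.891 to 43.6 CPM over all mice, and none of the 4 markers had a median of 0. Of all 140 relations, 17 passed by Pearson's r, 11 in DRF and 6 in NRF. Npas2 in DRF also passed against the arcuate and lateral hypothalamus list (r = -0.731, permutation p = 0.00074, adjusted p = 0.0215, rho = -0.763 with permutation p = 0.00011). It passed against the endothelium list (r = 0.728, permutation p = 0.0011, adjusted p = 0.0215, rho = 0.729 with permutation p = 0.00061) and the microglia list (r = 0.468, permutation p = 0.00421, adjusted p = 0.0393, rho = 0.501 with permutation p = 0.0066). Without the 2 farthest mice these r were -0.638, 0.661 and 0.517. In NRF it passed against the microglia list (r = 0.664, permutation p = 0.00363, adjusted p = 0.0391, rho = 0.588 with permutation p = 0.00543) and the neuron list (r = 0.635, permutation p = 0.00215, adjusted p = 0.028, rho = 0.554 with permutation p = 0.00853), with r = 0.575 and 0.568 without the 2 farthest. The level of Npas2 thus moved with lists of several kinds, and the part of striatal or other tissue in it was not tested.

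Rora, a receptor that activates through ROREs, varied widely between mice of the same group. The within-group SD on the log2 scale was 0.31 in DRF, where that of Npas2 was 0.34, and 0.39 in NRF, the largest of the 5 genes there. For Arntl it was 0.08 and 0.07. In NRF at ZT12 the mice had 149, 74.8, 137 and 70.4 CPM, and at ZT16 66.4, 71.5, 105 and 118 CPM. In DRF at ZT12 they had 62.4, 94.8, 58.6 and 45.6 CPM, and at ZT16 59.4, 51.9, 38.1 and 34.6 CPM. The groups overlapped at ZT12 and did not at ZT16, where the lowest values of the study were those of the libraries that stood apart. Rora was lower in DRF by 0.95 at ZT16 (SE 0.24, adjusted p = 0.00609), and by 0.65 without them (SE 0.29, adjusted p = 0.371). The latter fit had only replicates 1 and 2 of DRF at ZT16. With library trends removed and all mice kept, Rora at ZT16 was lower by 0.70 (SE 0.21, adjusted p = 0.0242 by limma). At ZT12, with no trends removed, Rora was lower by 0.68 (SE 0.24, adjusted p = 0.124). Replicates 1 and 2 of DRF at ZT16 were also below all 4 NRF mice of that time.

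Rora moved with the thalamus list (Tcf7l2, Prkcd, Lef1, Tnnt1 and Rgs4) from mouse to mouse. In NRF the deviations from the group mean gave r = 0.941 and rho = 0.912 (permutation p = 1e-05 for both, the smallest that 100000 permutations can give, and adjusted p = 0.0014 for both). In DRF they gave r = 0.714 (permutation p = 0.00084, adjusted p = 0.0215) and rho = 0.669 (permutation p = 0.00204, adjusted p = 0.0428). Without the 2 mice farthest in the list r was 0.93 in NRF and 0.603 in DRF, and without the 2 DRF libraries at ZT16 it was 0.897 in DRF. The list summed to 289 to 415 CPM in NRF at ZT16 and to 229 to 247 CPM in DRF, with no overlap. With all mice, 2 of its 5 genes were called lower in DRF there. Over all transcripts 13.4% were called lower in DRF at ZT16, and 0.0933% without the 2 libraries that stood apart. The latter comparison had fewer DRF mice and so less power. Rora also passed against the neuron list in DRF (r = 0.621, permutation p = 0.00242, adjusted p = 0.0282, rho = 0.619 with permutation p = 0.00302) and the cortex list in NRF (r = 0.612, permutation p = 0.00191, adjusted p = 0.028, rho = 0.598 with permutation p = 0.00634), with r = 0.532 and 0.590 without the 2 farthest mice. No thalamus marker had a median of 0, and Prkcd ranged from 10.5 to 133 CPM. With the thalamus and striatum lists as covariates, a fit chosen after the data were seen, Rora at ZT16 was lower by 0.44 in DRF (SE 0.13, adjusted p = 0.0152), and its mean over time points differed by -0.03 (SE 0.05, adjusted p = 0.763). The same fit without the 2 DRF libraries gave a ZT16 difference of -0.03 (SE 0.11, adjusted p = 0.955), so the call was lost, and a mean difference of 0.02 (SE 0.04, adjusted p = 0.727). The thalamus list itself differed between regimens at ZT16, so these fits cannot tell a change in Rora from one in such tissue. The part of thalamic or other tissue in the level of Rora was not tested.

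**Figure D4:**
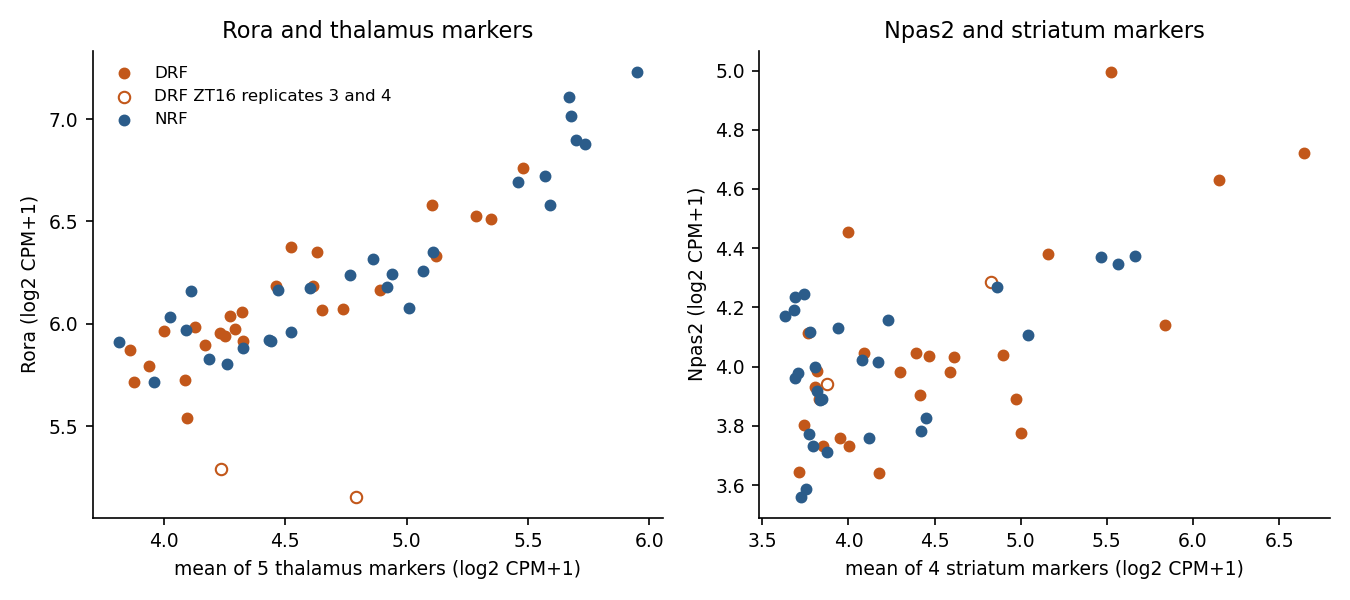
Level of Rora against the mean of 5 thalamus markers (left) and of Npas2 against the mean of 4 striatum markers (right), all as log2(CPM + 1), with 1 point per mouse, DRF in orange and NRF in blue. Rora and the thalamus markers rise together in both regimens, and the open circles of the 2 DRF libraries at ZT16 lie below that trend.

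Rorb, the receptor expressed in the suprachiasmatic nucleus as well as in thalamus and cortex, was called rhythmic in NRF with an amplitude of 0.15 (95% interval 0.06 to 0.23) and a peak at ZT18.8 (16.8 to 20.7). The NRF mice had 41.02, 34.6, 41.6 and 42.3 CPM at ZT8 and 50.5, 52.6, 49.0 and 47.8 CPM at ZT20, with no overlap. In DRF, where the rhythm was not called, the fitted amplitude was 0.12 and the fitted peak ZT2.60 (-0.55 to 5.76), 7.81 h after that of NRF (4.19 to 11.4 h). Without the 2 DRF libraries at ZT16 that amplitude was 0.06 (-0.02 to 0.14). The NRF call was lost when any replicate number was left out, with adjusted p from 0.0508 to 0.411. In DRF the mice of ZT20 had 41.2, 33.7, 41.4 and 47.6 CPM, all below those of NRF, and the difference was -0.29 (SE 0.12, adjusted p = 0.237). At ZT16 they had 44.4, 43.7, 35.2 and 25.5 CPM, the last 2 from the libraries that stood apart, against 43.5, 45.7, 50.4 and 55.2 CPM in NRF. Rorb was lower there by 0.41 with all mice (SE 0.12, adjusted p = 0.0138) and by 0.14 without them (SE 0.12, adjusted p = 0.718).

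Rorb deviations were set against the same lists. With the suprachiasmatic list of 8 genes r was 0.504 in DRF (permutation p = 0.0011, adjusted p = 0.0215, rho = 0.501 with permutation p = 0.00798 and adjusted p = 0.0698) and 0.514 in NRF (permutation p = 0.0241, adjusted p = 0.135, rho = 0.524 with permutation p = 0.025 and adjusted p = 0.159). Without the 2 farthest mice r was 0.417 and 0.440, and without the 2 DRF libraries at ZT16 it was 0.702 in DRF. With the thalamus list r was -0.210 in DRF (permutation p = 0.221, adjusted p = 0.423, rho = -0.159 with permutation p = 0.424) and 0.678 in NRF (permutation p = 0.0022, adjusted p = 0.028, rho = 0.659 with permutation p = 0.00247), and -0.365 and 0.562 without the 2 farthest mice. The suprachiasmatic markers summed to 130 to 396 CPM over all mice. Most of this sum was Avp, at 61.6 to 317 CPM, which is also on the paraventricular and supraoptic list. In DRF, Rorb also went opposite to the endothelium list (r = -0.684, permutation p = 0.00123, adjusted p = 0.0215, rho = -0.633 with permutation p = 0.00403), the microglia list (r = -0.680, permutation p = 0.00065, adjusted p = 0.0215, rho = -0.639 with permutation p = 0.00214) and the striatum list (r = -0.534, permutation p = 0.00476, adjusted p = 0.0395, rho = -0.483 with permutation p = 0.022). Without the 2 farthest mice these r were -0.573, -0.610 and -0.535. In NRF they were -0.092, 0.0058 and -0.396, and none passed (permutation p = 0.716, 0.976 and 0.0505). The part of these tissues and cells in the level of Rorb was not tested.

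The 5 genes were also set against one another within groups, in 10 pairs and 2 regimens. Of the 20 relations, 3 passed an adjusted p of 0.05 by Pearson's r. Rora and Rorb rose and fell together in NRF, with r = 0.802 (permutation p = 0.00018, adjusted p = 0.0036) and rho = 0.825 (permutation p = 0.0001, adjusted p = 0.002). Clock and Rora did so in DRF, with r = 0.637 (permutation p = 8e-04, adjusted p = 0.00793) and rho = 0.657 (permutation p = 0.00233, adjusted p = 0.0233). Npas2 and Rorb went in opposite directions in DRF, with r = -0.597 (permutation p = 0.00119, adjusted p = 0.00793) and rho = -0.528 (permutation p = 0.0115, adjusted p = 0.0768). Without the 2 farthest mice r was 0.778, 0.609 and -0.558. Without the 2 DRF libraries at ZT16 the DRF values were 0.544 for Clock and Rora and -0.659 for Npas2 and Rorb (adjusted p = 0.0431 by permutation for both). In the other regimen r was 0.413 for Rora and Rorb, 0.383 for Clock and Rora and 0.165 for Npas2 and Rorb. None of these passed (adjusted p = 0.155, 0.397 and 0.623 by permutation). Rora and Rorb both followed the thalamus list in NRF (r = 0.941 and 0.678). Npas2 and Rorb followed the striatum list in opposite directions in DRF (r = 0.841 and -0.534). The part of such tissue in these relations was not tested. Arntl and Clock, which encode the partners of the dimer, gave r = 0.117 in NRF (permutation p = 0.498, rho = 0.105 with permutation p = 0.592) and 0.321 in DRF (permutation p = 0.18, rho = 0.299 with permutation p = 0.179).

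The loop around these genes was read from a list of 29 clock genes, all of which were measured and tested. In NRF 21 of the 29 were rhythmic (27.8% of all transcripts) and in DRF 5 (0.813%), namely Per2, Per3, Nr1d1, Dbp and Tef. A rhythm difference was called for 9 of 29 (11.1% of all transcripts). At ZT0, where Arntl was lower in DRF, 5 of the 29 were higher in DRF by limma and none lower, with 1 lower at an unadjusted p under 0.05. These 5 were Per1, Per3, Cry2, Ciart and Dbp, and 2.38% of all transcripts were higher there. Per1, Per3, Ciart and Dbp are E-box targets of the BMAL1 dimer, and Cry2 is a partner of the Period proteins in its repression. The median difference of the 29 at ZT0 was 0.10 on the log2 scale, and that of all transcripts was 0.00. At ZT16, 9 were lower and 3 higher in DRF (13.4% and 6.71% of all transcripts), and the medians were -0.02 for the list and 0.00 for all transcripts. Without the 2 libraries that stood apart, limma called 1 of the 29 at ZT16, Dbp, which was lower in DRF (0.0933% of all transcripts were). Fewer DRF mice were left at ZT16 in this setting, which lowers power there. In the same setting 6 were higher (3.62% of transcripts) and 1, Nfil3, lower (3.64%) in DRF at ZT0. A rhythm difference was called for 7 (10.6%), as Nr1d2 and Kat2b lost theirs, and 3 were rhythmic in DRF (0.714%).

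The 3 listed genes with the smallest p for a rhythm difference were Dbp, Nr1d1 and Bhlhe41. Dbp, an output factor that binds D-boxes, had an amplitude of 0.73 in NRF and 0.40 in DRF (adjusted p = 0.000576). Nr1d1, the REV-ERB that represses through ROREs, had 0.48 in NRF and 0.29 in DRF (adjusted p = 0.00203) and peaked at ZT8.72 and ZT7.54. The reads of Dbp and Nr1d1 did not come out whole at their annotated lengths, so their CPM values are approximate. Bhlhe41, an E-box repressor, had 0.19 in NRF and 0.12 in DRF (adjusted p = 0.00298). The other REV-ERB, Nr1d2, had 0.20 in NRF and 0.11 in DRF (adjusted p = 0.022), a call that was lost without the 2 DRF libraries at ZT16 (limma adjusted p = 0.0824). Nfil3, itself a REV-ERB and ROR target, had 0.26 in NRF and 0.11 in DRF (adjusted p = 0.00993), with a peak at ZT22.0 in NRF near that of Arntl. Cry1, which carries both E-boxes and ROREs, had 0.14 in NRF and 0.06 in DRF (adjusted p = 0.174).

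The ratio of the fitted amplitudes, DRF over NRF, was 0.499 for Arntl and lay between 0.447 and 0.549 when 1 replicate number was left out. For the other members it crossed 1 in that range, from 0.197 to 1.04 for Clock, 0.751 to 2.41 for Npas2, 0.476 to 1.55 for Rora and 0.568 to 1.24 for Rorb.

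**Figure D5:**
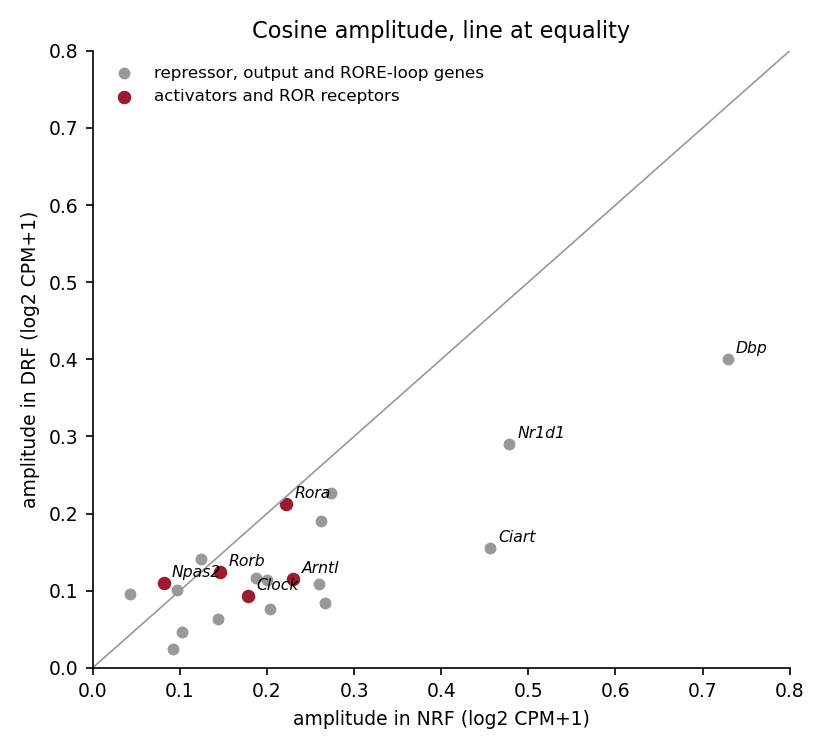
Cosine amplitude (log2 CPM + 1) in NRF (horizontal) against DRF (vertical) for the 5 genes (red) and 16 repressor, output and RORE-loop genes (grey), with a line of equal amplitude. With all mice, Arntl, Clock, Rorb and Rora lie below the line and Npas2 above it, a side that holds for Arntl without any 1 replicate number but turns for the other 4 genes, and Dbp and Nr1d1 have larger amplitudes than any of the 5.

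Over the 56 mice, the genes whose log2(CPM + 1) was most like that of each member by Pearson's r were named as a description. For Arntl they were Ccdc190 (0.803), Nfil3 (0.753) and Angptl4 (0.731). For Clock they were Pds5a (0.963), Hook3 (0.959) and Tasor2 (0.956), and for Rora Gabra4 (0.944), Zmat4 (0.937) and Akap2 (0.927). For Npas2 they were Ptk2b (0.849), Camk2a (0.792) and Lmo7 (0.787), and for Rorb Calb1 (0.784), Ero1b (0.784) and Klhl10 (0.778). Without the 2 DRF libraries at ZT16 r was 0.848 for Ccdc190, 0.939 for Pds5a, 0.931 for Gabra4, 0.849 for Ptk2b and 0.680 for Calb1. Gabra4 then stood below Akap2 (0.938), and Calb1 below Ero1b (0.718) and Klhl10 (0.747). All mice share library preparation and the dissection, which such likeness also contains.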

How the data were processed

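RNA of 56 mice was sequenced, and per the labels the reads were aligned with HISAT2 and Bowtie2 and quantified with RSEM on GRCm38.p6. The deposited values are scores that the authors normalised with edgeR (TMM) and named TPM, but in each mouse they follow log2(CPM + 1) per kilobase of exon, scaled so that all genes of a mouse add up to the same total. They were returned to reads through GENCODE vM21 exon lengths: at a tolerance of 0.03 reads in at least 90% of mice, 14285 of 17564 genes gave whole reads, among them the 5 members, 1060 did so at a searched length, and 2015 kept the annotated length with reads that were not whole, Nr1d1 and Dbp among them.

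Rhythm was tested on the deposited scores with JTK_CYCLE and the Lomb-Scargle periodogram, rewritten in Python after MetaCycle and combined by Fisher's method, for transcripts at 1 or more in at least 80% of mice. limma 3.58.1 (R 4.3.3) was fitted to log2(CPM + 1) of 16083 transcripts with 14 groups, Benjamini-Hochberg adjusted over all of them. Correlations were permuted within groups 100000 times. Deviations named in the text are from group means. The computations were tested on simulated data. Each choice was varied in turn, and 4 of the alternatives (leaving out 2 libraries, marker covariates, both of these, and library trends removed together with a replicate block) were chosen after seeing the data.

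Named genes were the 5 members, the 29 listed clock genes with values for Nr1d1, Nr1d2, Nfil3, Cry1 and the 3 smallest p-values for a rhythm difference, and the 3 genes most like each member. Members and lists were chosen with earlier results of these data known. The striatum list was fitted without 1 of its genes, which is not reported here and was dropped for a reason unrelated to its values. Mice of a group are separate animals. Intervals cover the spread between mice, and counting error is within it.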

Additional observations from a re-analysis of the deposited data

Results flagged for a closer look

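In 70 groups of 4 mice, the gap of the highest or lowest mouse to its neighbour took an unusually large part of the group's range in 4 groups, and about 1 in 20 groups is found so by chance. Clock in DRF at ZT0 had 82.1 CPM in replicate 1 and 94.1 CPM in the next mouse, a gap of 0.879 of the range. Clock in NRF at ZT4 had 72.2 CPM in replicate 2 and 87.9 CPM in the next (0.875). Clock in NRF at ZT16 had 88.3 CPM in replicate 1 and 98.0 CPM in the next (0.899). Rorb in NRF at ZT8 had 34.6 CPM in replicate 2 and 41.02 CPM in the next (0.849). The rhythm differed between DRF and NRF for Arntl (adjusted p = 0.0449) and Rorb (adjusted p = 0.0356) by the limma test of the cosine terms.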

How the results depend on the processing

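The counts of members called moved as follows, and the cause was not tested. Of 3 members called rhythmic in NRF, 0 were called by the Lomb-Scargle periodogram alone, which called 0 of all transcripts, and leaving out a replicate number gave 2. Of 2 members with a rhythm difference, 1 was called on the deposited scale, 1 without ZT24 and 1 in the interaction over 7 time points, and 0 without ZT0, without ZT16 or without DRF ZT16 replicates 3 and 4, with 0 to 1 when a replicate was left out. Of 4 called member and time point pairs there were 2 on the deposited scale, 1 without ZT16, 2 without those libraries and 0 to 4 without a replicate. The 0 members called for mean level became 2 under median-ratio scaling, 3 with library trends removed, 1 without ZT16, 2 with trends removed and a replicate block, and 0 to 3 without a replicate. The mean difference of Clock turned to 0.015 without ZT16 and 0.02 without those libraries, and its difference at ZT16 to 0.0496 without the latter. With the marker covariates and without those libraries these were 0.0391 and 0.128, the mean difference of Rora was 0.0228, and 1 member (Arntl) had a rhythm difference and 1 pair (Arntl at ZT0) was called. With library trends removed, Clock gained a rhythm difference (adjusted p = 0.0244) and Rorb lost it (0.238), both by limma. Over all transcripts, 132 were rhythmic in DRF, and 57 without ZT24, 75 without ZT16 and 70 by JTK_CYCLE alone, 4508 in NRF, and 2984 without ZT24. A rhythm difference was called for 1780, and for 943 without ZT0, 1162 without ZT24 and 2748 with trends removed. Leaving out a replicate number gave 26 to 37 rhythmic in DRF, 2192 to 3392 in NRF, 417 to 1588 with a rhythm difference and, against 1678, 385 to 2329 with a mean difference, which was 1117 with the marker covariates. At ZT0 728 differed, 1371 with trends removed and 1168 without the 2 libraries, and at ZT16 3231, 1786 and 31. Without a replicate these were 120 to 519 and 21 (replicate 3) to 4973 (replicate 1). Replicate numbers did not pair the mice: residuals of 364 same-number pairs had a median correlation of 0.01 (-0.54 to 0.55), and 14 of 56 libraries were closest to their own number. With the replicate block 2 members kept a rhythm difference, 4 pairs were called, and 1 member, Arntl (adjusted p = 0.0466 by limma), was called for mean level. Over 662 alternative values of single members and transcript counts, 485 kept direction and side of the threshold (or stayed within the spread or count limit), 108 moved, 49 lost a call, 14 gained one and 6 turned direction.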
